A study of Homo sapiens with 2 samples.

Results

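Droplet barcodes in which more than 20% of the RNA molecules came from the mitochondrial genome are described here. They came from a joint RNA and ATAC profile of 5 human lung adenocarcinoma lines. Members were chosen by 3 limits: at least 1000 unique molecular identifiers (UMIs, each standing for a captured RNA molecule) in genes, at least 1000 counts in ATAC peaks, and over 20% of gene UMIs in the 13 genes whose names start with MT-. The rule found 356 barcodes of 3298 in all, or of 3160 with both minimums. Without the minimums 378 barcodes lay over 20%, so 22 failed one. The reference was the 947 barcodes with both minimums and an MT- share of 5 to 15%.

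The lines were A549, H838, H1975, H2228 and HCC827, each cultured apart, dissociated, frozen and then combined in equal parts. One capture tube was divided into an 80% and a 20% fraction. The larger fraction was used, with 1 RNA and 1 ATAC library that share all 3298 barcodes, so that both groups come from the same capture. With 1 culture per line and 1 library of each kind there is no replicate, no test was made, and all intervals (95%) cover counting error only.

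The mitochondrial genome encodes core subunits of the respiratory chain, and its transcripts stay inside the organelle, in the cytoplasm. All other respiratory subunits are encoded in the nucleus and made on cytosolic ribosomes. Secreted and membrane proteins are made on ribosomes bound to the endoplasmic reticulum (ER), whereas some long RNAs such as MALAT1 are kept in the nucleus. A droplet that holds a damaged cell, a whole cell or a nucleus with attached organelles can each alter the mitochondrial share, which is why such barcodes are often discarded.

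High barcodes held a median of 17271.5 gene UMIs (range 1029 to 196008), against 16109 in the reference. Counted without MT- genes, the medians were 13297.5 and 14498. The high barcodes were thus about as deep in nuclear-encoded RNA as the reference. Their median of peak counts over all lines together was 16983.5, lower than the 28524 of the reference. Values within lines are given below. At an equal depth of 3000 non-MT UMIs a median of 2005.5 genes was detected in 344 high barcodes and 1984 in 941 reference barcodes. The totals were 13595503 UMIs and 21295006 peak counts in the high group, and 23271135 UMIs and 43030765 peak counts in the reference.

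The MT- share chose the members and is given as a description. Its median was 23.0% in the high group, with a highest value of 70.6%, and 10.2% in the reference. Just outside the limit, 65 barcodes at 19 to 20% had medians of 17997 UMIs and 18329 peak counts. Just inside it, 69 barcodes at 20 to 21% had 19637 UMIs and 21416 peak counts. HCC827-like barcodes made up 52.3% of the former and 37.7% of the latter. The limit cut through a filled range, with 423 barcodes between 15 and 20%.

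Each barcode was given to a line from up to 6 marker genes per line, with at least 3 marker UMIs and at least 70% of them in that line. A549-like and HCC827-like barcodes were named from markers of those lines, and the other groups are called by leading genes (S100A9/CST1, SLC30A8/MAGEA10 and DHRS2/ZNF676). Genes used only to check the assignment followed it. ALDH1A1, an aldehyde dehydrogenase abundant in A549, stood at 2809 CPM (UMIs of a gene per 1000000 non-MT UMIs) in high A549-like barcodes and at 45.1 CPM or less in the other high lines. EGFR, the amplified receptor gene of HCC827, stood at 8675 CPM in high HCC827-like barcodes. The next level was 1875 CPM in the S100A9/CST1 line, where 213 of 374 UMIs came from 1 of 3 high barcodes. Of 23 check genes, all but 1 were highest in their own line among high barcodes, only 3 and 4 in the S100A9/CST1 and SLC30A8/MAGEA10 lines. The exception was CEACAM5, at 33.0 CPM in A549-like (22 UMIs) and 5.73 CPM (12 UMIs) in HCC827-like high barcodes. A line was also called from the ATAC profile, and the RNA and ATAC calls gave the same line in 227 of 231 high barcodes. They did so in 697 of 710 reference barcodes, but the ATAC profiles were summed over barcodes named by RNA markers, these among them. The reference value is therefore partly built in and cannot be set against that of the high barcodes.

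Line make-up differed sharply between the groups. HCC827-like barcodes were 135 of 356 high barcodes (37.9%, interval 32.9 to 43.2%) and 135 of 947 reference barcodes (14.3%, 12.1 to 16.6%). A549-like barcodes made up 13.5% of the high group (48) and 4.96% of the reference (47). That order rests on the lower bound of the reference: of all barcodes up to 15%, A549-like ones were 28.8%. The S100A9/CST1 line, the most frequent in the reference with 333 barcodes (35.2%, 32.1 to 38.3%), had 3 high barcodes (0.843%, 0.174 to 2.44%). The SLC30A8/MAGEA10 line had 4 high (1.12%) and 126 reference barcodes (13.3%). For the DHRS2/ZNF676 line the counts were 41 (11.5%, 8.39 to 15.3%) and 69 (7.29%, 5.71 to 9.13%). Those last intervals overlap, whereas those of the other 4 lines do not. Called by ATAC profile, the DHRS2/ZNF676 line made up 24.4% of high (20.1 to 29.2%) and 13.3% of reference barcodes (11.2 to 15.6%). Those intervals do not overlap.

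Seen from each line, 28.2% of HCC827-like barcodes (135 of 479) lay over 20%, as did 16.7% of the DHRS2/ZNF676 line (41 of 246) and 6.22% of A549-like barcodes (48 of 772). In the S100A9/CST1 line the share was 0.743% (3 of 404) and in the SLC30A8/MAGEA10 line 0.795% (4 of 503). The median MT- share of the lines ran from 0.447% in A549-like to 16.6% in HCC827-like barcodes. A549-like barcodes were split: 82.6% lay under 5%, and the 48 high barcodes formed a tail. In the S100A9/CST1 line 82.4% lay between 5 and 15%.

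**Figure D1:**
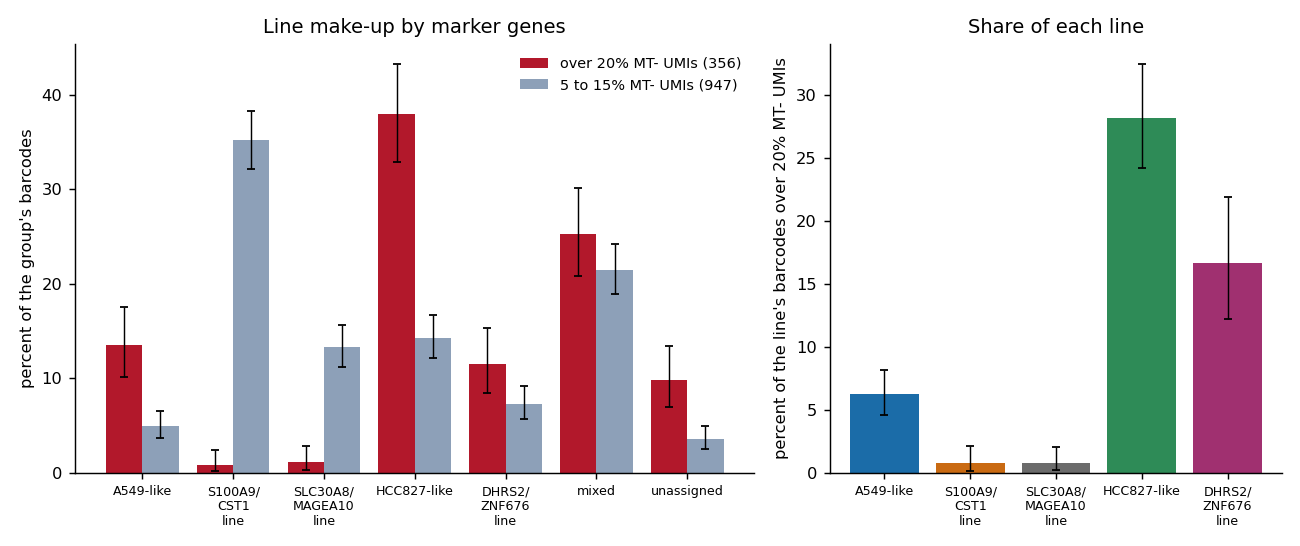
Left, percent of high (over 20% MT- UMIs, red) and reference (5 to 15%, grey-blue) barcodes given to each line, mixed or unassigned; right, percent of each line's barcodes over 20%. Bars start at 0 and error bars are exact binomial 95% intervals of counting error; HCC827-like barcodes reach 37.9% of the high group and the S100A9/CST1 line 0.843%.

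Barcodes with markers of several lines, which doublets or free RNA can give, were 90 of the high group (25.3%, 20.8 to 30.1%) and 203 of the reference (21.4%, 18.9 to 24.2%). They were deep, with a median of 75188 UMIs among high barcodes and 32692 in the reference. Thinned to 5000 non-MT UMIs, 18.2% of high and 16.7% of reference barcodes were mixed. The most frequent pair among high mixed barcodes was the S100A9/CST1 with the DHRS2/ZNF676 line (34 of 90). Barcodes with under 3 marker UMIs were shallow, at a median of 7834 UMIs, and made up 35 of the high group (9.83%) and 34 of the reference (3.59%). By ATAC profile 30 of those 35 high barcodes were HCC827-like. Of the 90 high mixed barcodes 45 were of the DHRS2/ZNF676 line by ATAC. Called by ATAC alone, HCC827-like barcodes were 54.2% of the high group, the DHRS2/ZNF676 line 24.4% and the S100A9/CST1 line 5.34%. Thinning lowered the HCC827-like share of the high group to 25.6%, and 28.6% were then unassigned. Mixed and unassigned barcodes were left out of the comparisons within lines.

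Cells from outside the lines were looked for with marker lists. In high barcodes 4 of 12 immune markers were at 0 and the 12 summed to 24.9 CPM, against 14.8 CPM in the reference. PTPRC, which marks white blood cells, stood at 0.774 against 3.75 CPM, whereas CD14 (11.4 against 6.59 CPM), CSF1R (7.06 against 2.84 CPM) and CD79A (4.74 against 0.963 CPM) were above the reference. Within HCC827-like barcodes the 12 summed to 25.8 CPM (19.4 to 33.6) in high and 6.44 CPM (3.33 to 11.3) in reference barcodes, and their part in that comparison was not tested. The sums were 10.5 against 13.6 CPM in A549-like and 26.9 against 20.5 CPM in DHRS2/ZNF676 barcodes. The 5 red cell markers summed to 0.387 CPM, with 4 at 0. The 8 endothelial markers summed to 24.96 CPM against 67.5 CPM in the reference, and VWF stood at 0.677 CPM. The 7 fibroblast markers summed to 182 CPM against 105 CPM, mostly COL1A1 at 121 CPM, and COL3A1 stood at 0.193 CPM. Within lines the 7 summed to 27.0 against 17.6 CPM in A549-like and 9.55 against 8.59 CPM in HCC827-like barcodes. In the DHRS2/ZNF676 line they were lower in high barcodes, at 206 against 234 CPM. COL1A1 is also made by some carcinoma lines, and its part in the line comparisons was not tested.

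At least 20 barcodes in both groups were found in 3 lines, which were compared within the line: A549-like (48 high, 47 reference), HCC827-like (135 and 135) and the DHRS2/ZNF676 line (41 and 69). Their median peak counts, high against reference, were 16709.5 against 18222, 12382 against 12371 and 38704 against 31266 in that order. The lower median of the whole high group was thus not seen in every line. UMIs were summed over barcodes and expressed as CPM without MT- genes, so a larger MT- total cannot lower the other genes. Genes with at least 100 UMIs over both groups were measured, and a gene was called at a 2-fold ratio of CPM + 1, a scale that understates changes of low genes. In A549-like barcodes 44 of 3571 genes (1.23%) were higher and 20 (0.56%) lower. In HCC827-like barcodes 28 of 7260 (0.386%) were higher and 17 (0.234%) lower. Of 6544 genes in the DHRS2/ZNF676 line 33 (0.504%) were higher and 66 (1.01%) lower. In either direction this came to 1.79%, 0.62% and 1.51% of measured genes, so 2-fold differences within a line were few.

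The ER list was above the reference in all 3 lines. It holds the chaperones, translocon and glycosylation subunits through which secretory proteins are folded. In A549-like barcodes 26 of 30 measured members were higher (50.7% of all measured genes were), with a median log2 ratio of 0.51, where that of all genes lay within 0.0115 of 0 in each line. In HCC827-like barcodes 30 of 35 were higher (49.4% of all genes), with a median of 0.29. In the DHRS2/ZNF676 line 33 of 35 were higher (51.3% of all genes), with a median of 0.34. The summed level of the list was 8682 CPM (interval 8460 to 8909) in high against 6144 CPM in reference A549-like barcodes. It was 8147 (8025 to 8270) against 6726 CPM in HCC827-like and 11314 (11142 to 11489) against 8878 CPM in DHRS2/ZNF676 barcodes. No member was 2-fold higher in any of them.

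DDOST, a subunit of the oligosaccharyltransferase that attaches sugar chains to new proteins, stood at 135 CPM against 70.5 CPM in A549-like barcodes, 127 against 91.3 CPM in HCC827-like barcodes and 223 against 155 CPM in the DHRS2/ZNF676 line. SSR4, a subunit of the translocon-associated complex, stood at 342 against 185 CPM, 564 against 388 CPM and 437 against 322 CPM in the same order. CALR, which encodes the lectin chaperone calreticulin, stood at 486 against 313 CPM, 420 against 318 CPM and 1099 against 778 CPM. For these genes the counting intervals of both groups did not overlap in any of the 3 lines. HSPA5, the ER chaperone BiP and a classical marker of ER stress, had log2 ratios of 0.63, 0.11 and 0.23. SEC61G, a translocon subunit that lies beside EGFR and is amplified with it in HCC827, stood at 110 against 332 CPM in A549-like barcodes (log2 -1.59). Of its 245 reference UMIs there 161 came from 1 barcode, and without the highest barcodes the log2 ratio was -0.51.

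**Figure D2:**
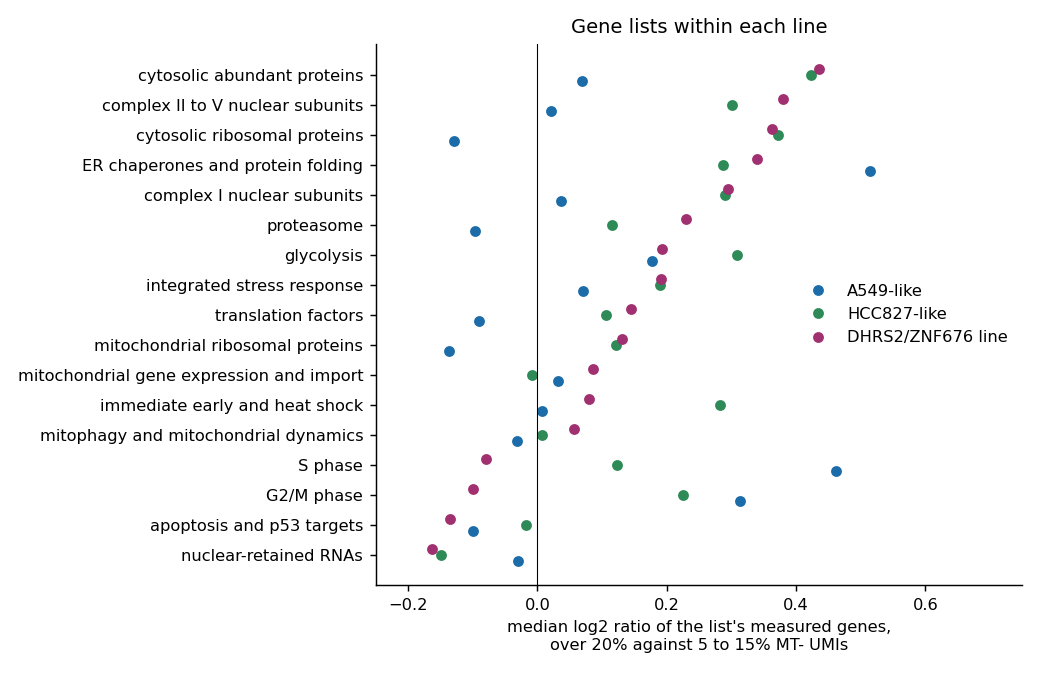
Median log2 ratio of high against reference over the measured genes of each list (x axis), for 3 lines (colours), with lists ordered by their value in the DHRS2/ZNF676 line; lists with fewer than 5 measured genes in a line have no point. The ER list lies right of 0 in all 3 lines, and ribosomal proteins do so in HCC827-like and DHRS2/ZNF676 barcodes but not in A549-like ones.

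Ribosomal protein transcripts were higher in 2 of the 3 lines. All 78 ribosomal protein genes were measured. Of all measured genes 49.4% were higher in HCC827-like, 51.3% in DHRS2/ZNF676 and 50.7% in A549-like barcodes. In HCC827-like barcodes 78 of 78 were higher, with a median log2 ratio of 0.37 and a sum of 50620 against 39238 CPM. Of the 78 in the DHRS2/ZNF676 line 77 were higher, with a median of 0.36 and a sum of 42379 against 32065 CPM. In A549-like barcodes 28 of 78 were higher, with a median of -0.13 and a sum of 27981 against 29904 CPM. That negative value did not hold: without each gene's highest barcode in each group the median was 0.0026, and without the deepest 10% of barcodes it was 0.17. Glycolysis genes were also mostly higher in all 3 lines, with 14 of 15 in HCC827-like (median 0.31), 14 of 15 in DHRS2/ZNF676 (0.19) and 8 of 12 in A549-like barcodes (0.18). Abundant transcripts of cytosolic proteins gave similar values, with medians of 0.42, 0.43 and 0.07 in HCC827-like, DHRS2/ZNF676 and A549-like barcodes. S100A6, a small calcium-binding protein, stood at 948 against 635 CPM, 1855 against 1375 CPM and 916 against 747 CPM.

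Nuclear-encoded respiratory subunits assemble with the MT- products. For complexes II to V, 36 of 37 measured members were higher in HCC827-like barcodes (median log2 0.30), 31 of 36 in the DHRS2/ZNF676 line (0.38) and 9 of 17 in A549-like barcodes (0.02). Of all measured genes 49.4, 51.3 and 50.7% were higher in the same order. For complex I the medians were 0.29, 0.29 and 0.04, with 25 of 34, 29 of 33 and 5 of 10 higher. COX4I1, a subunit of cytochrome c oxidase, stood at 358 against 287 CPM in HCC827-like barcodes, 310 against 241 CPM in the DHRS2/ZNF676 line and 210 against 195 CPM in A549-like barcodes. NDUFB11 of complex I stood at 142 against 75.2 CPM, 197 against 131 CPM and 110 against 84.1 CPM. Genes for mitochondrial transcription, RNA handling and import showed little difference, with medians of -0.01, 0.09 and 0.03 for HCC827-like, DHRS2/ZNF676 and A549-like barcodes. Mitophagy and dynamics genes had medians of 0.01, 0.06 and -0.03.

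Stress and death programmes gave smaller or unlike medians. Immediate early and heat shock genes had medians of 0.28 in HCC827-like, 0.08 in DHRS2/ZNF676 and 0.01 in A549-like barcodes. In HCC827-like barcodes 14 of 15 were higher, against 49.4% of all measured genes. The integrated stress response list had medians of 0.19 in HCC827-like, 0.19 in DHRS2/ZNF676 and 0.07 in A549-like barcodes, over 12, 10 and 7 measured genes. Summed over all members, measured or not, it stood at 3011 (2881 to 3146) against 2302 CPM (2194 to 2414) in A549-like barcodes. The sums of the list were 1213.5 against 1169 CPM in HCC827-like and 1099 against 1092 CPM in DHRS2/ZNF676 barcodes. Its member SLC7A11, the cystine transporter, was close to 2-fold lower in HCC827-like (56.4 against 110 CPM) and DHRS2/ZNF676 barcodes (66.9 against 125 CPM) and stood at 749 against 714 CPM in A549-like ones. SLC3A2, its partner chain, stood at 857 against 452 CPM in A549-like barcodes. The apoptosis and p53 list had medians of -0.02, -0.13 and -0.10. Among its 12 measured members in the DHRS2/ZNF676 line, PMAIP1 (NOXA, which promotes apoptosis) was higher, at 49.0 against 23.1 CPM, and BIRC3 (an inhibitor of apoptosis) lower, at 21.4 against 64.8 CPM. No list member of that kind differed by 2-fold in the other lines.

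Measured cell cycle genes were mostly higher in A549-like barcodes, with medians of 0.46 (S phase) and 0.31 (G2/M). Higher were 7 of 7 and 14 of 15, against 50.7% of all measured genes. The lists hold 46 and 52 genes, so most were not measured. A minimum over both groups can pass a gene mainly through the group where it is high. Summed over all members, measured or not, S phase stood at 2436 against 1639 CPM and G2/M at 4553 against 3120 CPM. RRM2, a subunit of ribonucleotide reductase, stood at 140 against 42.1 CPM, CENPE, a mitotic kinesin, at 150 against 47.5 CPM, and MKI67, a proliferation marker, at 153 against 71.9 CPM. The medians of the S phase and G2/M lists were 0.12 and 0.22 in HCC827-like barcodes and -0.08 and -0.10 in the DHRS2/ZNF676 line. At over 25% MT- UMIs the HCC827-like values turned to -0.16 and -0.18. The A549-like sums of RRM2 rest on 93 high and 31 reference UMIs, of which 13 and 6 came from the barcode with the most.

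Nuclear-retained RNAs were lower in HCC827-like (9 of 13 measured, 50.6% of all genes were lower) and DHRS2/ZNF676 barcodes (10 of 14, against 48.7%), with medians of -0.15 and -0.16. The median in A549-like barcodes was -0.03 (6 of 10, against 49.3%). MALAT1, the most abundant of them, stood at 45221 against 54678 CPM in HCC827-like, 32190 against 42440 CPM in DHRS2/ZNF676 and 24491 against 27450 CPM in A549-like barcodes. TUG1 had log2 ratios of 0.07, 0.46 and 0.18 in that order, the last of which was -0.28 without the highest barcodes.

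The same comparison was extended over bands of MT- share, without regard to the 20% limit and in all 5 lines. The summed ER list was higher in each band than in the one below, in every line. In A549-like barcodes it stood at 2936 CPM under 2%, 6144 CPM at 5 to 15% and 8313 CPM at 20 to 30%. In HCC827-like barcodes these values were 2951, 6726 and 8005 CPM, and in the DHRS2/ZNF676 line 3896, 8878 and 10871 CPM. In the S100A9/CST1 line the list went from 4522 to 11647 CPM over the first 2 of these bands, and in the SLC30A8/MAGEA10 line from 4175 to 10236 CPM; their 3 and 4 barcodes at 20 to 30% gave 13702 and 12362 CPM. The level thus already differed between bands below the 20% limit. Bands of under 20 barcodes are thin, among them all those over 30% (5, 10 and 4 barcodes).

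MALAT1 ran the other way in the S100A9/CST1 line, from 69577 CPM under 2% through 44660 CPM at 5 to 15% to 24723 CPM at 20 to 30%. It went from 65223 through 54678 to 46048 CPM in HCC827-like barcodes and from 70590 through 42440 to 34672 CPM in the DHRS2/ZNF676 line. In A549-like barcodes it stood at 29770, 27450 and 24610 CPM, with 32194 CPM at 15 to 20%. The SLC30A8/MAGEA10 line showed no steady fall, with 41788, 35589 and 40773 CPM. Depth moved with the bands: A549-like barcodes had a median of 4403.5 non-MT UMIs under 2% and 11710 at 5 to 15%, and its part in these trends was not tested. Between the reference and the high group the medians were closer in 2 lines, at 10833 and 12682 in HCC827-like and 17104 and 17831 in DHRS2/ZNF676 barcodes. In A549-like barcodes they were 11710 and 8211, so high barcodes there were shallower than the reference.

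**Figure D3:**
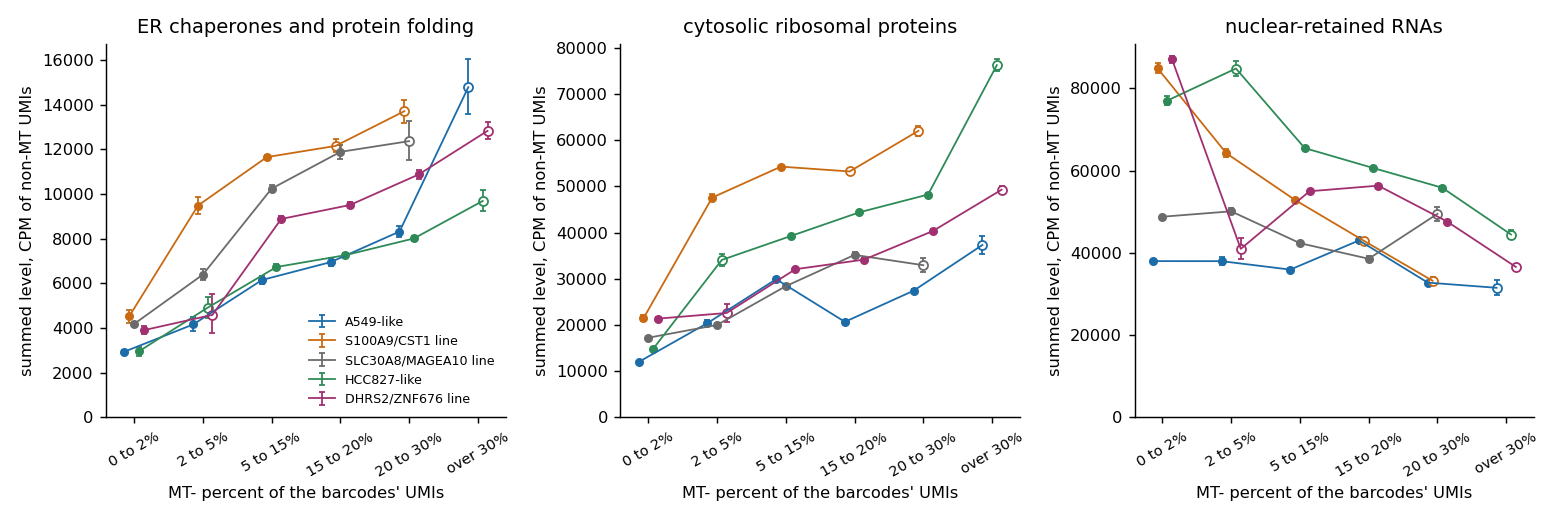
Summed level of 3 gene lists (CPM of non-MT UMIs, linear axes from 0) in bands of MT- share for the 5 lines; open symbols mark bands of under 20 barcodes and error bars are Poisson 95% intervals. ER genes climb in every line, from 2936 to 8313 CPM between under 2% and 20 to 30% in A549-like barcodes, while nuclear-retained RNAs decline in most.

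The differences followed the genomic span of genes. Measured genes were put in 5 classes by the distance from start to end in the annotation, and 97.2%, 94.8% and 96.01% of measured genes in the 3 lines had a span. In HCC827-like barcodes the median log2 ratio was 0.25 in the shortest class (up to 17334 bases) and -0.11 in the longest (from 134212 bases). The DHRS2/ZNF676 line gave 0.31 and -0.17, where 80.4% of the shortest but 27.7% of the longest genes were higher. The A549-like values were 0.09 and -0.05. The medians declined from class to class in each line. Without ribosomal protein genes the shortest class stood at 0.24, 0.30 and 0.14 for HCC827-like, DHRS2/ZNF676 and A549-like barcodes, so the pattern was not theirs alone. In A549-like barcodes the gap between the classes, 0.14 as computed, widened to 0.47 at 3000 UMIs per barcode and to 0.29 where RNA and ATAC gave the same line.

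**Figure D4:**
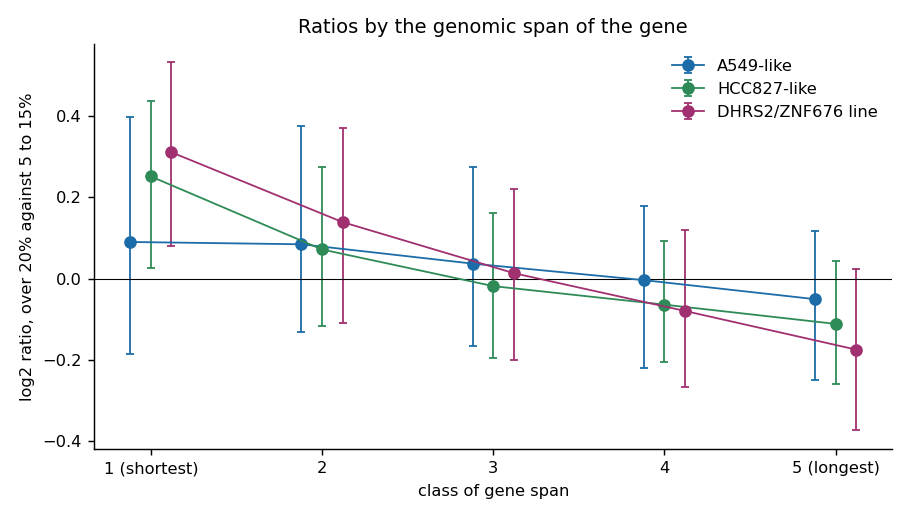
Median log2 ratio of high against reference (points) with its quartiles over genes (bars) in 5 classes of gene span, from shortest to longest, for 3 lines. Medians decline from 0.31 to -0.17 in the DHRS2/ZNF676 line and from 0.25 to -0.11 in HCC827-like barcodes.

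Of 3290 genes measured in all 3 lines, 603 (18.3%) were higher and 745 (22.6%) lower in each of them at any size. A single gene was at least 2-fold higher in all 3 (0.0304%) and none was 2-fold lower. That gene was IGFBP6, a secreted protein that binds insulin-like growth factors. It stood at 206 CPM (interval 173 to 243) against 88.2 CPM (68.1 to 112) in A549-like barcodes. In HCC827-like barcodes it stood at 60.2 CPM (50.1 to 71.6) against 29.5 CPM (22.2 to 38.4), and in the DHRS2/ZNF676 line at 550 CPM (512 to 589) against 220 CPM (197 to 245). The log2 ratios were 1.21, 1.00 and 1.32, and without the highest barcode of each group 1.04, 1.06 and 1.31. Without the deepest 10% of barcodes they were 0.84, 0.57 and 1.24, and with lines taken from ATAC 0.92, 1.53 and 0.95. Each of these settings lost the 2-fold call in 2 lines and kept the direction.

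IGFBP6 also climbed with the MT- share in the S100A9/CST1 line, which had 3 high barcodes. There it stood at 19.04 CPM under 2%, 58.2 CPM at 5 to 15% and 173 CPM in the 17 barcodes at 15 to 20%. In the DHRS2/ZNF676 line it stood at 144 CPM under 2%, 220 CPM at 5 to 15%, 368 CPM at 15 to 20% and 546 CPM at 20 to 30%. The SLC30A8/MAGEA10 line showed a smaller range, from 16.9 CPM under 2% to 43.3 CPM at 15 to 20%.

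At 1.5-fold, a limit set after the values were seen, 8 of the 3290 genes (0.243%) were higher in all 3 lines and none was lower. Besides IGFBP6 these were ARL6IP1, ATP6AP1, CST3, EMP3, GPAA1, SDC1 and SLC38A10. CST3, the secreted protease inhibitor cystatin C, stood at 428 against 275 CPM in A549-like, 400 against 245 CPM in HCC827-like and 695 against 412 CPM in DHRS2/ZNF676 barcodes. ARL6IP1, which shapes ER membranes, stood at 537 against 260.5 CPM, 395 against 200 CPM and 642 against 424 CPM. SDC1, the cell surface proteoglycan syndecan-1, stood at 141 against 78.7 CPM, 88.3 against 55.3 CPM and 174 against 114 CPM. GPAA1, a subunit of the enzyme that attaches GPI anchors in the ER, had log2 ratios of 0.81, 0.59 and 0.92. ATP6AP1, an accessory subunit of the vacuolar proton pump, had 1.13, 0.69 and 0.61. Each of these 7 fell under 1.5-fold in at least 1 line under some alternative. Without the highest barcodes this held for ARL6IP1 and ATP6AP1 in the DHRS2/ZNF676 line (0.53 and 0.51) and for CST3 in A549-like barcodes (0.53). The lowest value of any was 0.24, for ARL6IP1 in the DHRS2/ZNF676 line without the deepest 10%, so all kept their direction.

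The IGFBP6 promoter is shown because an ATAC peak covers it, so the RNA difference can be set beside accessibility. It is taken from RefSeq (GRCh38.p14, chr12:53097417-53097716, plus strand, 250 bases before to 50 bases after the start), with the GC box GGGCGG in capitals.
IGFBP6: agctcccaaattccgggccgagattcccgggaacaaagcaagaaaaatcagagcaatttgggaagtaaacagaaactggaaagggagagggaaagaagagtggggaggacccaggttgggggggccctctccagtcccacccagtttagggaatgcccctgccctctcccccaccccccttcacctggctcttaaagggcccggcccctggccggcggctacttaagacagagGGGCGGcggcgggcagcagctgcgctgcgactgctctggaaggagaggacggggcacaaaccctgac
The search covered both strands. The GC box, which Sp1-type factors bind, is in 45.0% of 35116 promoters of this length. The TATA box (TATAAA) is held by 11.5% of them and is not in this window. The same is true of the AP-1 site (TGACTCA), held by 4.95%. The peak at chr12:53097463-53098309 stood at 22.4 against 20.4 ATAC CPM (counts scaled to the same total of peak counts) in A549-like barcodes, 4.40 against 8.82 in HCC827-like and 14.6 against 17.2 in the DHRS2/ZNF676 line. The intervals of both groups overlapped in each line, on 11 to 49 counts, so no difference in accessibility was detectable at this depth.

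Other genes passed 2-fold in single lines. MUC5AC, a gel-forming mucin used as an A549 check gene, stood at 447 CPM (298 UMIs, interval 398 to 501) against 122 CPM (90 UMIs, 98.2 to 150) in A549-like barcodes. CEACAM6, a cell surface adhesion protein, stood at 147 against 21.7 CPM, but 58 of its 98 high UMIs lay in 1 barcode. Without the highest barcodes its log2 ratio was 1.71 in place of 2.71. Among genes that held 2-fold with and without the highest barcodes (36 higher, 1.01%, and 10 lower, 0.28%), the tight junction gene CLDN2 stood at 140 against 47.5 CPM. At the low end, SAMD12 stood at 39.0 against 151 CPM (log2 -1.92). MT2A, a metallothionein whose reads near-identical family members may share, stood at 61.5 against 286 CPM, and 170 of the 211 reference UMIs came from 1 barcode. Without the highest barcodes its log2 ratio was -0.73.

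EGFR, high in HCC827, also differed between the A549-like groups. It stood at 1655 CPM in reference and 964 CPM in high A549-like barcodes, while the medians over barcodes were 385 and 369 CPM. A single reference barcode held 421 of 1220 EGFR UMIs. RNA and ATAC gave different lines in 5 of 47 reference and 2 of 48 high A549-like barcodes, though the reference ones had entered the ATAC profile. Where RNA and ATAC gave the same line, 9 of 2857 genes (0.315%) were lower, in place of 20 of 3571 (0.56%). The part of these barcodes in the A549-like differences was not tested beyond that.

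In HCC827-like barcodes the highest ratios belonged to AC010967.1, a non-coding RNA (57.8 against 20.4 CPM), and EMP3, a membrane protein (75.9 against 27.9 CPM). With and without the highest barcodes 23 genes (0.317%) were 2-fold higher and 14 (0.193%) lower. Among the former were CST6, cystatin E/M, at 283 against 112 CPM, and WFDC2, a secreted airway protein, at 106 against 42.9 CPM. UNC5C, a netrin receptor, was lowest, at 37.3 CPM (78 UMIs, interval 29.4 to 46.5) against 180 CPM (336 UMIs, 162 to 201), followed by FGB, fibrinogen beta and an A549 check gene, at 17.7 against 77.8 CPM. Of the 145 reference UMIs of FGB 50 came from 1 barcode, and without the highest barcodes its log2 ratio was -1.81. The other A549 check genes FGG (3.34 against 1.07 CPM) and FGA (0.955 against 2.68 CPM) were low in both HCC827-like groups. The RNA and ATAC profiles gave the same line in 135 of 135 high and 134 of 135 reference HCC827-like barcodes. The latter had entered the ATAC profile themselves. The part of droplets that hold A549-like RNA as well was not tested. CXCL8, the chemokine interleukin-8, stood at 18.1 against 61.7 CPM. The assigning marker PMCH, left out of the counts, stood at 1.43 CPM (3 UMIs) against 68.2 CPM (127 UMIs).

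The UNC5C promoter is shown for the same reason, since its RNA had the lowest ratio in the line with the most high barcodes (RefSeq, GRCh38.p14, chr4:95548924-95549223, minus strand, written in the direction of the gene). It holds none of the 3 motifs, so nothing is in capitals.
UNC5C: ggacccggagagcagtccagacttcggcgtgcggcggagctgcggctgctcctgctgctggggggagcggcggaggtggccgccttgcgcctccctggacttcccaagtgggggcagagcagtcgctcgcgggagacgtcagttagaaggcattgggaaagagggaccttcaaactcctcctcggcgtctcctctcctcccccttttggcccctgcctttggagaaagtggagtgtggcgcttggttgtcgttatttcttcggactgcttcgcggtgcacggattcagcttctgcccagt
The peak at chr4:95548849-95549645 stood at 8.39 ATAC CPM (21 counts) in high and 9.70 (22 counts) in reference HCC827-like barcodes. At this depth the intervals, 4.11 to 15.2 and 4.84 to 17.4, do not show a difference like the one in RNA.

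In the DHRS2/ZNF676 line TMED1, a cargo receptor between ER and Golgi, stood at 99.3 CPM (144 UMIs) against 38.3 CPM (58 UMIs). With the line taken from ATAC its log2 ratio was 0.67 in place of 1.35. Lower genes were more frequent here: 62 genes (0.947%) were 2-fold lower with and without the highest barcodes, and 23 (0.351%) higher. The non-coding RNAs MEG3 and MEG8, neighbours in an imprinted locus, stood at 13.1 against 80.0 CPM and 15.9 against 74.7 CPM. Their UMIs came from few barcodes, 6 of 41 high and 11 of 69 reference barcodes for MEG3, with a most of 26 UMIs in 1 reference barcode. CXCL1, a chemokine, stood at 53.8 against 165 CPM, and MMP7, a secreted protease, at 22.1 against 76.0 CPM. The lowest ratio, of AL033523.1 (3.45 against 63.4 CPM), rests on 1 reference barcode with 91 of 96 UMIs, and without the highest barcodes it was -0.49. The next, AC129926.2 (7.59 against 59.5 CPM), held at -2.55.

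The make-up of the mitochondrial RNA is a description, since its sum chose the members. MT-CO1, a subunit of cytochrome c oxidase, took a smaller share of MT- UMIs in high than in reference barcodes of all 5 lines: 10.8 against 12.2% in A549-like, 11.4 against 15.9% in S100A9/CST1, 9.23 against 9.74% in SLC30A8/MAGEA10, 11.9 against 13.9% in HCC827-like and 9.92 against 11.4% in DHRS2/ZNF676 barcodes. MT-CO3 took a larger share in 4 of the 5, for example 21.1 against 18.8% in the DHRS2/ZNF676 line, and 19.5 against 19.7% in the SLC30A8/MAGEA10 line. MT-ND6, the protein gene on the opposite strand from the rest, was the rarest, with 0.0607 against 0.0981% in A549-like barcodes. Its share was smaller in high barcodes of all 5 lines. The S100A9/CST1 and SLC30A8/MAGEA10 lines had only 3 and 4 high barcodes. In the former 1 barcode held 40895 of 54882 MT- UMIs, and in the latter the intervals overlapped for both MT-CO1 and MT-ND6.

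ATAC reads offer a measure the rule did not use. Nuclear genes of the MTRNR2L family are near-identical to mitochondrial ribosomal RNA genes, and reads of mitochondrial DNA can align there. The peak beside MTRNR2L1 (chr17:22520957-22521853), among the 3 peaks with the largest median ratio over the compared lines, was higher in high than in reference barcodes of all 5 lines. In A549-like barcodes it stood at 329 (interval 282 to 381) against 185 ATAC CPM (158 to 215), and in HCC827-like barcodes at 269 (241 to 300) against 200 (175 to 228). In the DHRS2/ZNF676 line it stood at 67.4 (55.5 to 81.0) against 28.6 (20.3 to 39.1). With 4 high barcodes the SLC30A8/MAGEA10 line gave 208 (99.9 to 383) against 69.9 (56.3 to 85.7), and with 3 the S100A9/CST1 line 46.1 (25.8 to 76.1) against 33.4 (29.8 to 37.4). The intervals are apart in 4 lines and overlap in the S100A9/CST1 line. In the 3 compared lines the peak was picked by these same ratios, so the gap there is not separate evidence.

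Under 2% MT- UMIs the same peak stood at 20.4 in A549-like, 4.14 in S100A9/CST1, 13.4 in SLC30A8/MAGEA10, 4.56 in HCC827-like and 0.955 in DHRS2/ZNF676 barcodes, below the reference of each line. Between those ends the order was not steady, with 166 at 15 to 20% against 185 at 5 to 15% in A549-like barcodes. In HCC827-like barcodes the band at 2 to 5% stood at 340 (234 to 477), above the 269 of the high group. That band rests on 66 counts from 4 of 10 barcodes. Scored as present or absent per barcode, its log2 ratio in the DHRS2/ZNF676 line was -0.03 in place of 1.21, and 106 of the 226 high counts there came from the 4 barcodes over 30%. In RNA, MTRNR2L8 stood at 129 against 47.5 CPM in A549-like, 160 against 118 CPM in HCC827-like and 125 against 83.3 CPM in DHRS2/ZNF676 barcodes, and MTRNR2L12 had log2 ratios of 0.77, 0.47 and -0.10. Which copy these reads came from is uncertain and was not tested.

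**Figure D5:**
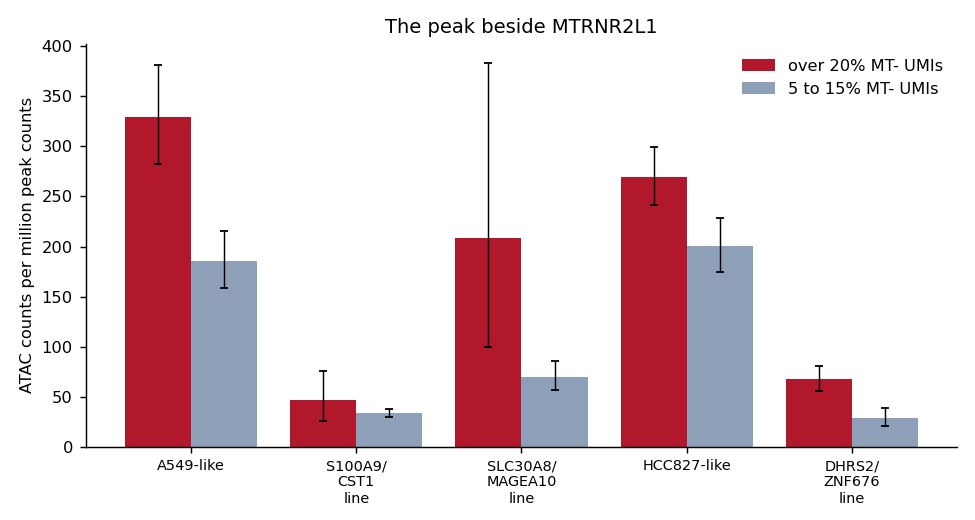
ATAC CPM (counts scaled to total peak counts) in the peak beside MTRNR2L1 for high (over 20% MT- UMIs, red) and reference (5 to 15%, grey-blue) barcodes of each line, with Poisson 95% intervals on counts divided by 2. High barcodes lie above the reference in all 5 lines, with 329 against 185 in A549-like barcodes.

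Accessibility otherwise differed little. Peaks with at least 100 counts over both groups were measured. In A549-like barcodes 62 of 6962 peaks (0.891%) were 2-fold higher and 62 (0.891%) lower. In HCC827-like barcodes 40 of 11851 (0.338%) were higher and 41 (0.346%) lower, and in the DHRS2/ZNF676 line 99 of 15531 (0.637%) and 52 (0.335%). In 2 lines these calls sat at low counts: among peaks with at least 400 counts none of 539 passed in HCC827-like and 1 of 753 in DHRS2/ZNF676 barcodes. In A549-like barcodes 2 of 78 such peaks passed, both lower, so the calls there were not limited to low counts. Of 6121 peaks measured in all 3 lines none was 2-fold different in the same direction in all. Of the 62 lower peaks in A549-like barcodes 27 lay near EGFR, where 32 of all 6962 measured peaks lie. The opposite direction was found in the DHRS2/ZNF676 line, with 8 of the 99 higher peaks near EGFR, where 26 of 15531 lie. The median log2 ratio of all peaks was 0.14 in A549-like barcodes and within 0.0254 of 0 in the other lines.

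Promoter peaks, within 2000 bases of a gene start, were 10 of 40 higher, 35 of 41 lower and 72.6% of all measured peaks in HCC827-like barcodes. They were 30 of 99 higher, 31 of 52 lower and 65.9% of all in the DHRS2/ZNF676 line. In A549-like barcodes they were 47 of 62 higher, 30 of 62 lower and 84.8% of all. The share of all peak counts in promoter peaks was 48.9% in high and 50.3% in reference HCC827-like barcodes, 45.3 and 46.3% in the DHRS2/ZNF676 line and 57.5 and 54.3% in A549-like barcodes. Per barcode this share ran from 38.3 to 55.4% in high and from 42.5 to 57.7% in reference HCC827-like barcodes, so the groups overlapped widely.

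The peaks with the largest median ratios over the 3 lines, beside the one at MTRNR2L1, were at the promoter of TSPAN15, a membrane tetraspanin, and 24993 bases from CRIM1. The TSPAN15 peak (chr10:69450913-69451823) stood at 64.5 against 35.3 ATAC CPM in A549-like, 26.0 against 17.2 in HCC827-like and 29.8 against 16.1 in DHRS2/ZNF676 barcodes. The intervals overlapped in all 3 lines. The lowest median ratios belonged to promoter peaks of QSOX2, ZNRF1 and CHMP4C. At QSOX2, a sulfhydryl oxidase gene (chr9:136245413-136246279), the values were 19.6 against 52.9, 35.2 against 41.4 and 19.7 against 45.8, with intervals apart in A549-like and DHRS2/ZNF676 barcodes. At ZNRF1, a ubiquitin ligase gene, they were 39.2 against 45.2, 27.2 against 48.5 and 21.5 against 45.1.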

How the data were processed

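RNA and ATAC were measured in the same droplets. The authors deposited 1 joint matrix of counts, UMIs for 36601 genes and ATAC counts for 187920 peaks, and the submitters' processing notes list Cell Ranger ARC 2.0.0 and the build GRCh38. How cells and peaks were called, which annotation was taken and whether strand was used is not given in the sources used here, so antisense genes and near-identical copies are uncertain. Positions are those of the deposited feature list.

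Counts were summed over the barcodes of a line and group and divided by total non-MT UMIs, or by total peak counts. Genes and peaks with at least 100 counts over both groups were measured, and 2-fold was called with a pseudocount of 1 CPM. Intervals are exact Poisson (peak counts divided by 2) or Clopper-Pearson at 95%. They cover counting error only. No test was made. The second line call took the likelihood of a barcode's peak counts under each line's summed profile of barcodes at or under 15% MT- share. Those barcodes were given to lines by their RNA markers, so reference barcodes were scored against profiles that held their own counts. No doublet caller was run, and barcodes with mixed markers were left out within lines.

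Named genes were the 2 highest and lowest of each line, those 2-fold in every line, list members and markers, and for peaks the 3 highest and lowest median ratios. Genes at 1.5-fold in every line, genes that held without the highest barcodes, and the 5-line account of the MTRNR2L1 peak were chosen after their values were seen. Some genes that these rules name are not reported here. The members and lists were chosen with earlier results of these data known. Python 3.11.15, numpy 2.4.6, scipy 1.17.1, pandas 2.3.3 and matplotlib 3.10.9 were used, with TMM factors from edgeR 4.0.16 (R 4.3.3) as an alternative scaling. The computation was tested on simulated data.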

Additional observations from a re-analysis of the deposited data

How the results depend on the processing

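The ER list stayed above 0 in all 3 lines under every alternative that gave a value, with medians of 0.38 to 1.09 in A549-like, 0.25 to 0.36 in HCC827-like and 0.26 to 0.41 in DHRS2/ZNF676 barcodes. The short minus long gene gap also kept its sign. Several other values moved, and the A549-like ribosomal median changed sign under settings of depth, line call and reference. The alternatives over 25%, a reference of 5 to 10%, agreeing lines, no highest barcodes and 200 counts were chosen after seeing the data. The cause of changes was not tested. No paired analysis was possible because there is 1 library of each kind and no replicate.

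With lines from ATAC, S100A9/CST1 and HCC827-like barcodes were 5.34% and 54.2% of the high group and 49.0% and 17.7% of the reference. A549-like medians were 0.24 (complexes II to V), 0.0079 (ribosomal, sign changed) and -0.25 (nuclear-retained). Genes lower were 30 of 8262 (0.363%) in HCC827-like and 27 of 10983 (0.246%) in DHRS2/ZNF676, and genes higher 14 (0.127%) in the latter. In A549-like barcodes 33 of 6052 peaks were higher and 34 lower, and in DHRS2/ZNF676 barcodes 24 of 48738 were lower. The MTRNR2L1 peak was at 0.99 and 0.48 in these lines.

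Over 30% MT- UMIs the S100A9/CST1 line had 0% and HCC827-like 26.3% of high barcodes. Over 25% the former had 0%. HCC827-like barcodes then had 54 of 5541 genes higher (0.975%) and 46 lower (0.83%), and 14 of 6566 peaks higher and 121 lower. Their values were ribosomal 0.53, S phase -0.16, G2/M -0.18, span gap 0.57 and MTRNR2L1 peak 0.65. With 5 marker UMIs and 80% in a line, HCC827-like barcodes were 31.5% of high and 11.5% of reference, and S100A9/CST1 29.8% of reference. At 5000 UMIs these were 25.6%, 11.3% and 29.7%. With all barcodes up to 15% as reference, S100A9/CST1 was 16.1%, HCC827-like 8.15% and A549-like 28.8%, the last above its 13.5% of the high group.

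Against a 2 to 5% reference (A549-like only) 164 of 2118 genes (7.74%) were higher, and of 3497 peaks 18 were higher and 19 lower. Ribosomal stood at 0.43, nuclear-retained -0.14, ER 1.09, the span gap 0.64 and the MTRNR2L1 peak 1.42. Against 5 to 10% (HCC827-like and DHRS2/ZNF676 only) 137 of 5559 and 135 of 4891 genes (2.46 and 2.76%) were higher. Of 6472 and 9291 peaks 165 and 321 were higher, and the MTRNR2L1 peak was at 1.02 and 0.98. HCC827-like had 42 genes lower (0.756%), nuclear-retained -0.014 and proteasome -0.015. DHRS2/ZNF676 had 118 peaks lower, complexes II to V 0.50 and span gap 0.63.

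At 3000 UMIs 397, 1944 and 508 genes were measured in A549-like, HCC827-like and DHRS2/ZNF676 barcodes. Of these 12, 7 and 6 (3.02, 0.360 and 1.18%) were higher and 2, 6 and 4 (0.504, 0.309 and 0.787%) lower. A549-like ribosomal was 0.18, nuclear-retained -0.20 and span gap 0.47, and DHRS2/ZNF676 nuclear-retained -0.38. With no minimum of UMIs 20686, 22778 and 22553 genes were measured in the same order. Of these 2785, 800 and 1194 (13.5, 3.51 and 5.29%) were higher and 3819, 1178 and 1877 (18.5, 5.17 and 8.32%) lower. The HCC827-like span gap was 0.26. A pseudocount of 10 gave 7 of 7260 and 7 of 6544 genes higher (0.0964 and 0.107%) in HCC827-like and DHRS2/ZNF676 barcodes. It gave 9 and 43 lower (0.124 and 0.657%). Where RNA and ATAC lines were the same, A549-like barcodes had 9 of 2857 genes lower (0.315%), and 27 of 4947 peaks higher and 17 lower. Complexes II to V then stood at 0.22, ribosomal 0.031, nuclear-retained -0.20 and span gap 0.29. Without the highest barcodes A549-like ones had 36 of 3571 genes lower (1.01%), ribosomal 0.0026, nuclear-retained -0.30, ER 0.38 and span gap 0.28. Without the deepest 10% A549-like ribosomal was 0.17, nuclear-retained -0.29 and span gap 0.40. HCC827-like then had 27 of 6140 (0.44%) and DHRS2/ZNF676 26 of 5223 genes (0.498%) lower. DHRS2/ZNF676 had span gap 0.34, complexes II to V 0.26 and translation factors -0.0024.

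Scaled to promoter peaks 38 of 6962 peaks were higher in A549-like barcodes. With no minimum of counts 149633, 163737 and 175891 peaks were measured in A549-like, HCC827-like and DHRS2/ZNF676 barcodes. Peaks higher were then 22974, 18447 and 16608 and lower 51656, 17154 and 17018. At 4-fold, of 6962, 11851 and 15531 peaks, they were 0, 0 and 0, and 20, 0 and 0. At 200 counts, of 1550, 3806 and 5520 peaks, they were 1, 0 and 7, and 9, 1 and 3. Binarised, 5 peaks were lower in A549-like and 17 in HCC827-like barcodes, 15 were higher in HCC827-like and 5 in DHRS2/ZNF676 barcodes, and the MTRNR2L1 peak stood at 0.25 and -0.031 in these last lines. Over 30% gave no gene, list or peak values, since no line had 20 barcodes.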
